A study of Mus musculus with 17 samples.

Results

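The unfolded protein response and ERAD genes are 32 genes that act when unfolded proteins build up in the endoplasmic reticulum (ER). They comprise 6 sensors and factors, 16 chaperones and folding enzymes, 8 genes of ER-associated degradation (ERAD) and 2 translocon genes. The members were found by probe sets annotated to exactly 1 of these genes. In the 8-array table all 32 members were measured, by 71 probe sets, and all 32 passed the filter on dim signals, among 9221 genes that passed. Of the 32, a probe set was present for 29 members in the 9-array table and 27 passed, among 6364 genes. Ern1, Sdf2l1 and Syvn1 had no probe set there, and Calr and Hyou1 were below the filter. A gene is given by its brightest probe set that passed. Probe sets of the same gene were compared for 10 members in the 8-array table and for 4 in the 9-array table. Where these differed in direction or call, the members are named. The 10 were Hspa5, Dnajc3, Hyou1, Xbp1, Ern1, Herpud1, Derl1, Edem1, Vcp and Sec61a1, and the 4 were Dnajc3, Derl1, Vcp and Sec61a1. More than 1 probe set also passed for other members, Derl2 and Pdia6 among them, and the directions of these were not compared.

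Quiescent cells of the line NIH 3T3, fibroblasts derived from mouse embryos, were the source of RNA, which was hybridised to 17 oligonucleotide arrays. There were 3 experiments, each condition having 1 array. The Src experiment (the 8-array table) had vehicle, SU6656 at 2 µM, UO126 at 10 µM and LY294002 at 7.5 µM, each without and with PDGF at 25 ng/ml for 1 h. The MEK experiment had untreated cells, UO126 at 10 µM, PD98059 at 7.5 µM, PDGF at 25 ng/ml, and PDGF with either inhibitor, and its PDGF time is not given in the sources used here. The repeat experiment had vehicle, PDGF at 25 ng/ml for 1 h, and PDGF with SU6656 at 2 µM. The MEK and repeat experiments make up the 9-array table. No genetic change is named in the labels for any group. PDGF is a fibroblast mitogen whose receptor activates PI3K, Src family kinases and the MEK to ERK cascade. LY294002 inhibits PI3K, SU6656 inhibits Src family kinases, and UO126 and PD98059 inhibit MEK. The labels do not state whether each array had a culture of its own. The p-values therefore measure the spread among these arrays alone. This spread holds differences in response between treatments and may otherwise be technical.

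The response has 3 membrane sensors. ATF6 is cut in the Golgi to free a transcription factor, IRE1 (Ern1) splices the Xbp1 transcript so that it encodes an active factor, and PERK (Eif2ak3) phosphorylates a translation initiation factor. ATF6 and XBP1 raise chaperone and ERAD genes, and the PERK branch acts through ATF4 to raise Ddit3, which encodes CHOP. The probe sets report total transcript, so Xbp1 splicing, ATF6 cleavage and PERK activity were not measured. ERAD exports misfolded proteins through a membrane ubiquitin ligase complex for destruction by the proteasome.

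The cells carried the fibroblast markers of the label. All 10 fibroblast markers passed the filter in both tables, with median signals over the 8 arrays of 362.7 to 38890 units. Over the 9 arrays they were 52.9 for Vim, whose probe set was dim there, to 22320 for Col1a1. Of 6 leukocyte markers 3 passed in the 8-array and 2 in the other table, with medians over the whole list of 14.6 (Ptprc) to 337.8 (Lyz2) and 5.1 to 108.9 units. Of 8 epithelial and endothelial markers 4 and 3 passed, with medians of 9.8 (Epcam) to 243.2 (Krt8) and 4.5 to 333.5 (Cdh1). The part of such cells in the results was not tested. The Gapdh 3′ to 5′ signal ratio, a sign of RNA quality, was 0.739 to 0.787 in the 8-array table. It was 1.13 on the untreated array of the MEK experiment and 0.788 to 0.907 on the other arrays of the 9-array table. In such bulk samples fewer cells and less RNA per cell cannot be told apart.

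Promoters of the members were read for known ER stress elements, because ATF6 and XBP1 act through them and the members with the largest LY294002 effects can be set beside them. RefSeq promoter windows of build GRCm38.p6, from 250 bases before to 50 bases after each annotated start, were found for 27 members. Atf6, Hyou1, Manf, Derl1 and Sec61a1 were not matched. The ER stress element (ERSE) was searched as CCAAT, 9 bases of any kind, then CCACG, on both strands. ERSE-II was searched as ATTGG, 1 base, then CCACG, and the unfolded protein response element (UPRE) as TGACGTGG. No match of one of these overlapped a match of another. The longest stretches show the Herpud1 promoter with its ERSE-II, the Hspa5 promoter with its ERSE, and the Xbp1 promoter, in which these letters were not found in the window. Capitals mark the element, each sequence runs 5′ to 3′ along the gene's strand, and an element on the reverse strand begins with CGTGG.
Herpud1 (chr8:94386279-94386428, + strand): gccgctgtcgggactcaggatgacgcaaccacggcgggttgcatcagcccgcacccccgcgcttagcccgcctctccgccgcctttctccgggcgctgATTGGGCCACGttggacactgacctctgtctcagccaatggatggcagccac
Hspa5 (chr2:34771940-34772089, + strand): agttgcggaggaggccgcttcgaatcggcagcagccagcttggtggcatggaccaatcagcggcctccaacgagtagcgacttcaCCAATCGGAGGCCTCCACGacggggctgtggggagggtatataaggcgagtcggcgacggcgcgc
Xbp1 (chr11:5520491-5520640, + strand): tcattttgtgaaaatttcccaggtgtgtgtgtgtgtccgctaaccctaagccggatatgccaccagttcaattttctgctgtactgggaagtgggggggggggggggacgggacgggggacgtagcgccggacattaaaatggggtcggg
Calr (chr8:84847065-84847103, - strand): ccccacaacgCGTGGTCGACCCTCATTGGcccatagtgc
Hsp90b1, first match (chr10:86705628-86705666, - strand): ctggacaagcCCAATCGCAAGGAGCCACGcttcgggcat
Hsp90b1, other match (chr10:86705523-86705561, - strand): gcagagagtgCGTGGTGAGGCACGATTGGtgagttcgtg
Canx (chr11:50325790-50325828, - strand): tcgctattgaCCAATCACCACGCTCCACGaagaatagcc
Pdia6 (chr12:17266481-17266519, + strand): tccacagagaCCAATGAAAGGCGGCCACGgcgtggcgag
Dnajc3 (chr14:118937817-118937855, + strand): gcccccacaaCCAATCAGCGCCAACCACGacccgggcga
Creld2 (chr15:88819510-88819548, + strand): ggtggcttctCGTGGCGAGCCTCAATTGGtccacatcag
Syvn1 (chr19:6046522-6046560, + strand): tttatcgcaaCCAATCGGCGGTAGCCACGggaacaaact
Dnajb11 (chr16:22857852-22857862, + strand): ATTGGCCCACG
Vcp (chr4:43000604-43000631, - strand): tgcggccaatTGACGTGGcgttactagg

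An ERSE was present in 8 of the 27 members (29.6%) and in 0.137% of 27025 genes with a window. The element was first defined from promoters of ER chaperone genes, Hspa5 and Hsp90b1 among them, so its presence there is no independent observation. ERSE-II was present in 2 members (7.41%), Herpud1 and Dnajb11, and in 0.0444% of genes, and it was first described at the human HERPUD1 gene. The UPRE was present in 1 member, Vcp (3.7%), and in 0.714% of genes. These matches describe the letters of the windows and do not show binding.

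**Figure D1:**
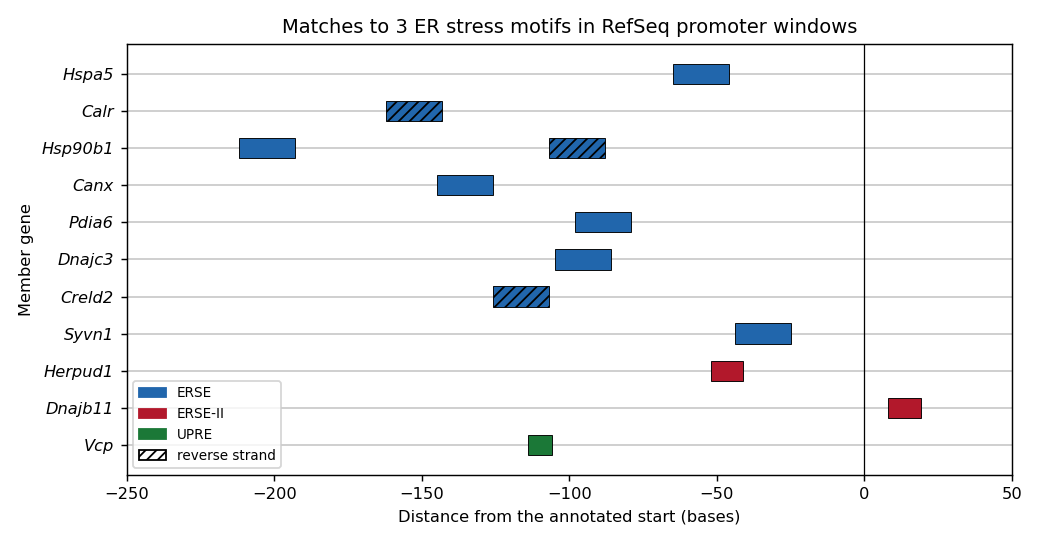
Position of each match in the promoter windows of 11 members, in bases from the annotated start, from 250 bases before to 50 bases after it. Colours stand for the 3 elements and hatching for the reverse strand. All matches lie upstream of the start except that of Dnajb11.

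With LY294002, Herpud1, Xbp1, Manf and Derl1 fell, by 1.11, 0.91, 0.67 and 0.51 on the log2 scale, and no member rose. Herpud1 encodes an ER membrane protein that gathers the ERAD ligase complex, Xbp1 encodes the transcription factor of the IRE1 branch, Manf encodes a secreted ER stress protein, and Derl1 encodes a membrane protein of the ERAD channel. The effect was tested with limma as 2 LY294002 arrays against 2 vehicle arrays, with PDGF as a term, in a fit over all 8 arrays. Its log2 values are of signal plus 36.28 units, which understates changes of dim probe sets. The 4 members that fell are of 32, against 0.314% of all 9221 genes called lower, and 0.174% of genes were called higher. Over the members the median effect was -0.26, with 25 negative and 7 positive. Over all genes it was 0.01, with 4453 of 9221 negative. Unadjusted p was below the threshold of 0.05 for 18 of the 32 members, against 1297 of all 9221 genes.

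Herpud1 signal was 3076 without and 4954 with PDGF in vehicle cells, 3061 and 4449 with SU6656, 3854 and 4306 with UO126, and 1690 and 1910 with LY294002. Both LY294002 arrays were below the other 6, and LY294002 with PDGF was also below vehicle without PDGF. The effect was -1.11 ± 0.13 (SE), a 2.16-fold lower signal (limma adjusted p = 0.00955). A further Herpud1 probe set gave -1.46 ± 0.10 (adjusted p = 8e-04).

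Xbp1 signal was 7787 without and 9595 with PDGF in vehicle cells, 7030 and 8883 with SU6656, 7898 and 8341 with UO126, and 4390 and 5084 with LY294002. Here too the groups did not overlap. The effect was -0.91 ± 0.08 (SE), 1.88-fold lower (adjusted p = 0.00299). Of 4 Xbp1 probe sets that passed the filter 2 were called lower, and the others gave -0.55 and -0.61 (adjusted p = 0.0666 and 0.121).

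Manf signal was 3375 without and 4075 with PDGF in vehicle cells, 3720 and 3839 with SU6656, 3696 and 4077 with UO126, and 2092 and 2546 with LY294002. The LY294002 arrays were the lowest of the 8. The effect was -0.67 ± 0.09 (SE), 1.59-fold lower (adjusted p = 0.0153). Derl1 signal was 3761 without and 4324 with PDGF in vehicle cells, 3424 and 3901 with SU6656, 3422 and 3935 with UO126, and 2678 and 3008 with LY294002. The effect was -0.51 ± 0.08 (SE), 1.42-fold lower (adjusted p = 0.0293). The brightest Derl1 probe set is of a kind that can match several transcripts, and 3 others gave -0.18, -0.30 and -0.36 without passing the threshold.

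**Figure D2:**
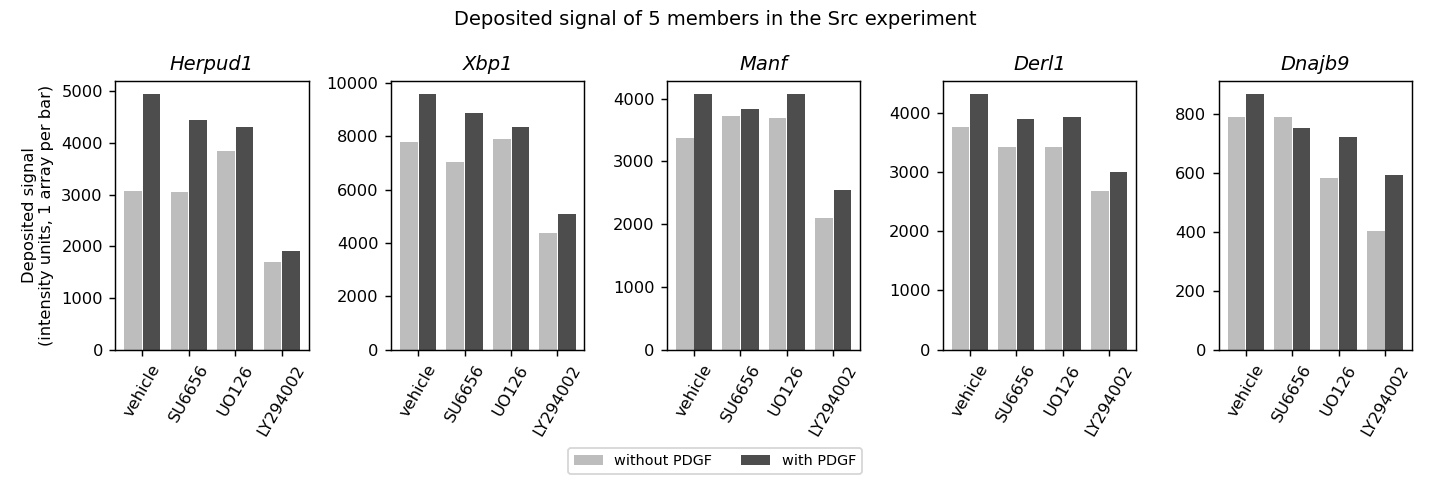
Deposited signal in intensity units of 5 members on the 8 arrays of the Src experiment, 1 array per bar and so no error bar, grey without PDGF and dark with PDGF. The LY294002 bars are the lowest pair in the panels of Herpud1, Xbp1, Manf and Derl1, while for Dnajb9 the LY294002 array with PDGF (591.9) is above the UO126 array without PDGF (581.1).

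These 4 calls depended on single arrays. Without the LY294002 array, the PDGF array, or the array with both, no member was called, and without the vehicle array only Herpud1 and Xbp1 were. Their effects stayed negative, Herpud1 between -1.30 and -0.92, Xbp1 between -0.98 and -0.85, Manf between -0.75 and -0.60 and Derl1 at -0.51 to -0.50 when 1 array was left out. The actin 3′ to 5′ ratio was 1.17 on the array with PDGF and LY294002, the lowest of the 8 (up to 1.4), and its part in these results was not tested. The Gapdh ratio of the LY294002 arrays was 0.771 and 0.741, within the range of the others.

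Among the 6 sensors and factors only Xbp1 was called, and the median LY294002 effect was 0.02, with 3 positive and 3 negative. Ppp1r15a, which encodes a phosphatase subunit that ends the translation block of PERK, had signals of 678.4 without and 858.9 with PDGF in vehicle cells, 956.5 and 879.4 with SU6656, 856 and 690.7 with UO126, and 930.7 and 998.3 with LY294002. The ranges overlapped, and the effect was 0.32 ± 0.16 (adjusted p = 0.451). Ddit3, the CHOP gene, had an LY294002 effect of -0.11 ± 0.18 (adjusted p = 0.851), made of a ratio of 0.21 without PDGF and -0.43 with PDGF. Leaving out the PDGF array turned its sign, to 0.27. Ern1, the gene of the sensor IRE1, had an effect of 0.25 ± 0.29 and by its other probe set of -0.09 ± 0.37. Atf6 had an effect of 0.16 ± 0.18 and Eif2ak3, the PERK gene, of -0.28 ± 0.11 (adjusted p = 0.322 for Eif2ak3).

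Of the 16 chaperones and folding enzymes 14 had negative effects with LY294002, against 13 with UO126 and 11 with SU6656 over the same vehicle arrays. The LY294002 median was -0.32, and Manf was the member called. Dnajb9, an ER co-chaperone of BiP, had a signal of 787.7 without and 867.6 with PDGF in vehicle cells, 788.9 and 752.1 with SU6656, 581.1 and 721.2 with UO126, and 400.8 and 591.9 with LY294002. Its effect was -0.74 ± 0.16 (adjusted p = 0.0883). Sdf2l1, part of the BiP chaperone complex, had -0.64 ± 0.16 (adjusted p = 0.121), and Creld2, an ER stress protein with disulfide activity, had -0.53 ± 0.22 (adjusted p = 0.348).

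Hspa5 encodes BiP, the main ER chaperone, which also keeps the sensors inactive. Its signal was 13002 without and 20250.0 with PDGF in vehicle cells, 11792 and 14985 with SU6656, 13320 and 16926 with UO126, and 11334 and 13520 with LY294002. The array with LY294002 alone was the lowest of the 8, but the array with both agents was above vehicle, so the groups overlapped. The effect was -0.44 ± 0.105 (adjusted p = 0.114), and a further Hspa5 probe set was called at -0.47 (adjusted p = 0.0492). Leaving out 1 array moved the effect of the brighter probe set from -0.65, without the vehicle array, to -0.23, without the PDGF array. Hsp90b1, which encodes the ER chaperone GRP94, had -0.33 ± 0.09 and Calr, the calreticulin gene, -0.24 ± 0.06 (adjusted p = 0.13 and 0.134).

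The protein disulfide isomerases and oxidase ranged from -0.32 for Pdia6 through -0.16 for P4hb, -0.15 for Pdia4 and -0.09 for Pdia3 to -0.05 for Ero1l. The membrane lectin chaperone Canx had 0.04 and the BiP co-chaperone Dnajb11 had 0.18, the highest of the chaperones. Dnajc3, a further BiP co-chaperone, had -0.38 (adjusted p = 0.295), while 1 of its other probe sets was called at -0.80 (adjusted p = 0.0333). Hyou1, a large ER chaperone and exchange factor of BiP, had -0.32 (adjusted p = 0.245).

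Of the 8 ERAD genes 7 had negative effects with LY294002, against 5 with UO126 and 5 with SU6656. The LY294002 median was -0.27, and Herpud1 and Derl1 were called. Edem1, a lectin that hands misfolded glycoproteins to ERAD, had -0.40, Syvn1, the gene of the ligase HRD1, had -0.29, and Sel1l, its adaptor, had -0.24 (adjusted p = 0.475, 0.338 and 0.624). Derl2 had -0.18 and Vcp, the ATPase that extracts ERAD substrates, had -0.17 and 0.05 by its 2 probe sets. Ufd1, a cofactor of Vcp, had 0.00.

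The translocon genes differed from each other. Sec61a1, which encodes the pore subunit, had signals of 7765 without and 9362 with PDGF in vehicle cells, 8610 and 8013 with SU6656, 4707 and 7050 with UO126, and 5144 and 6734 with LY294002. The effect was -0.59 ± 0.12 with LY294002 (adjusted p = 0.0831) and -0.62 ± 0.12 with UO126 (adjusted p = 0.249), so neither passed. The other 5 Sec61a1 probe sets read -0.56 to -0.14 with LY294002, but -0.10, -0.03, 0.08, -0.16 and 0.25 with UO126, so the UO126 value belongs to 1 probe set alone. Sec61b, a small subunit of the same channel, had signals of 4401 without and 3963 with PDGF in vehicle cells, 4874 and 4300 with SU6656, 4928 and 4817 with UO126, and 4570 and 4076 with LY294002. Its LY294002 effect was 0.05 ± 0.08 (adjusted p = 0.839), and the LY294002 arrays lay among the others.

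**Figure D3:**
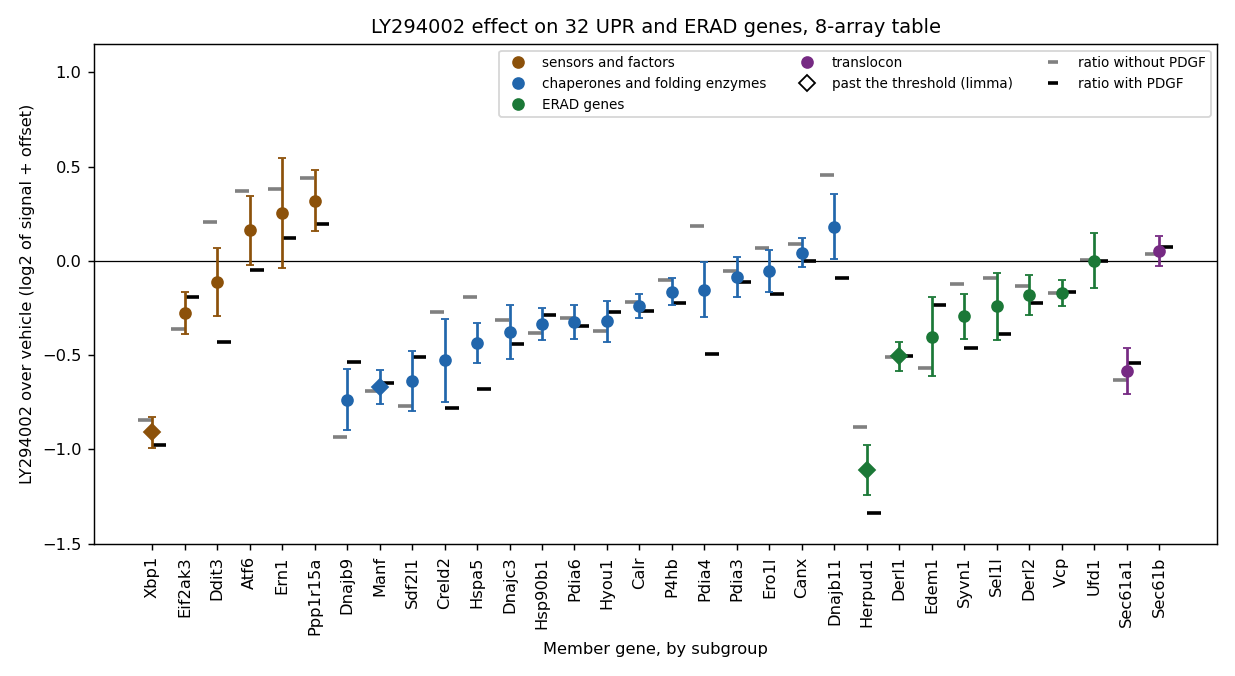
LY294002 effect on the log2 scale (vertical axis) for the 32 members by subgroup (horizontal axis). Points are fitted effects with bars of 1 SE, diamonds the 4 members past the limma threshold, and grey and black dashes the single ratios without and with PDGF. Herpud1 (-1.11), Xbp1 (-0.91), Manf (-0.67) and Derl1 (-0.51) are the diamonds, and 25 of the 32 points lie below 0.

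Counted without a test, 11 of the 32 members (34.4%) had both LY294002 arrays below all 6 other arrays, against 7.13% of all genes. They were Xbp1 and Eif2ak3 of the sensors and factors, Calr, Pdia6, Hyou1, Sdf2l1, Creld2 and Manf of the chaperones, and Syvn1, Herpud1 and Derl1 of the ERAD genes. Both LY294002 arrays were above the other 6 for 1 member, Ern1, against 6.59% of all genes. For SU6656 the count below was 1 member, Ero1l (2.87% of all genes), and for UO126 it was 1, Ern1 (4.07%).

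The single ratios showed the lower signals both without and with PDGF. LY294002 over vehicle without PDGF was below 0 for 22 of 32 members (median -0.18, against 49% of all genes below 0). Under PDGF it was below 0 for 28 members (median -0.28, against 48.2% of all genes). The other inhibitors under PDGF were set over the same PDGF array. There UO126 was below 0 for 28 members (median -0.148) and SU6656 for 24 (median -0.125), each against 48.3% of all genes. Without PDGF these 2 were below 0 for 14 and 15 members (medians 0.0465 and 0.00861). The LY294002 ratio of Derl1 was -0.51 both without and with PDGF. Whether the PDGF effect differed with LY294002 was tested as an interaction, which limma called for 0 members and 0% of all genes. An unadjusted p below 0.05 was found for 1 member, Edem1, against 440 of all 9221 genes. Among the 10 members compared, probe sets disagreed in the direction of the interaction for 8, Derl1, Sec61a1, Xbp1, Hspa5, Dnajc3, Herpud1, Hyou1 and Vcp.

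The 10 members with an ERSE or ERSE-II had a median LY294002 effect of -0.33, with 8 negative, and the 17 members with a window but neither element had -0.16, with 13 negative. This is a description of lists of unequal size and was not tested. Xbp1, second in size of effect among the members, was of the latter kind, while Dnajb11, with an ERSE-II after its start, had an effect of 0.18. Manf (-0.67), Sec61a1 (-0.59), Derl1 (-0.51), Hyou1 (-0.32) and Atf6 (0.16) had no window and are in neither list. Of these, Manf and Derl1 were called lower with LY294002.

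LY294002 was also set against each other inhibitor. The vehicle arrays do not enter these differences, but they share in the estimate of error, and the LY294002 arrays are the same ones as above, so the contrasts are not independent of the LY294002 effect. LY294002 minus SU6656 was lower for Herpud1 at -1.04 ± 0.13 (adjusted p = 0.0124), Xbp1 at -0.73 ± 0.08 (adjusted p = 0.00955) and Manf at -0.69 ± 0.09 (adjusted p = 0.0144). These are 3 of 32 members, against 0.336% of genes called lower, and no member was higher (0.336% of genes). Of the other Xbp1 probe sets 1 did not pass, at -0.36, and the other probe set of Vcp was opposite in direction to its brightest. LY294002 minus UO126 was lower for Herpud1 at -1.16 ± 0.13 (adjusted p = 0.00624), Xbp1 at -0.75 ± 0.08 (adjusted p = 0.00586) and Manf at -0.73 ± 0.09 (adjusted p = 0.00842), against 0.651% of genes called lower. Here 2 of the other Xbp1 probe sets, at -0.48 and -0.71, did not pass, and the other 5 probe sets of Sec61a1 were opposite in direction to its brightest, which read 0.03. Without either LY294002 array no member was called in either contrast, nor without either SU6656 array in the contrast with SU6656. Without the UO126 array 2 were called in the contrast with UO126, Herpud1 and Xbp1.

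Ern1 was called higher with LY294002 than with UO126, at 1.66 ± 0.29 (adjusted p = 0.0311, against 0.759% of genes called higher). Its signal was 139.6 without and 152 with PDGF in vehicle cells, 146.8 and 97.7 with SU6656, 46.5 and 23.5 with UO126, and 189.7 and 168.5 with LY294002. The UO126 arrays were the low ones, near the offset added before the log. A further Ern1 probe set read 132.3 and 98.4 with UO126 and gave -0.20 ± 0.37 for the same contrast. With any 1 array left out, the same probe set gave 1.57 to 1.76, and the adjusted p was above the threshold except without the array of PDGF with SU6656. Without the LY294002 array the other probe set became the brighter one, and the gene's value by that rule was then -0.05, against 1.67 (adjusted p = 0.218) by the first probe set, a value added after seeing the data.

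SU6656 and UO126 moved no member past the limma threshold. For SU6656 it was 0 of 32 members (0.0976% of all genes), with 2 at an unadjusted p below 0.05, against 718 of 9221 genes. Effects of SU6656 had a median of -0.09 and ran from -0.34 for Hspa5 to 0.26 for Ppp1r15a. For UO126 it was 0 of 32 (0.0542% of all genes), with 7 at an unadjusted p below 0.05, against 853 of 9221 genes. Effects of UO126 had a median of -0.07 and ran from -1.41 for Ern1 to 0.46 for Dnajb11. Herpud1 had 0.05 ± 0.13 and Manf 0.06 ± 0.09 with UO126. Another probe set was opposite in direction for Dnajc3, Xbp1, Derl1, Sec61a1, Hyou1 and Vcp with SU6656 and for Xbp1, Derl1, Sec61a1, Herpud1 (-0.03), Ern1 (0.11) and Vcp with UO126. Effects were negative for 21 of the 32 members with SU6656 and for 21 with UO126, against 25 with LY294002. All 3 inhibitor effects were taken against the same vehicle arrays.

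**Figure D4:**
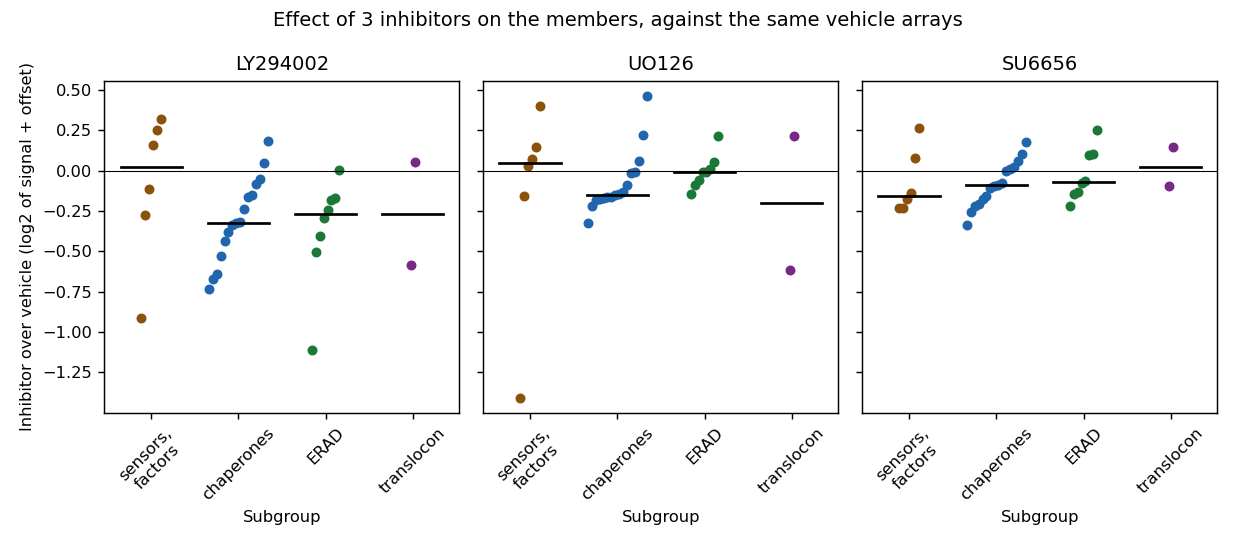
Effect on the log2 scale of LY294002, UO126 and SU6656 over the same vehicle arrays for the 32 members, 1 point per member, in 4 subgroups, with a bar at each subgroup's median. The chaperone median is -0.32 with LY294002, -0.15 with UO126 and -0.09 with SU6656, and the ERAD median is -0.27, -0.01 and -0.07.

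Lists of related genes outside the 32 members also held genes that fell with LY294002, to be read against the 0.314% of all genes called lower. Of 16 other factors of the response that passed the filter, 1 was lower, Trib3, a pseudokinase induced by ATF4 and CHOP, at -0.91 ± 0.12 (adjusted p = 0.0153), and the list's median was -0.12. Atf4, the main factor of the PERK branch, had -0.33 (adjusted p = 0.112). None of 23 other ER folding genes and none of 18 other ERAD genes were called by limma, with medians of -0.08 and -0.03. An unadjusted p below 0.05 was found for 9 and 5 of them, against 1297 of all 9221 genes. Of 26 genes of ER entry, signal peptidase and glycosylation 1 was lower, Serp1, a stabiliser of translocon proteins, at -0.59 ± 0.08 (adjusted p = 0.0153), with a list median of -0.15. Of 18 ER export genes 3 were lower, the COPII coat genes Sec23b at -0.84 ± 0.10 and Sec24d at -0.68 ± 0.09, and the cargo receptor gene Surf4 at -0.56 ± 0.09 (adjusted p = 0.00962, 0.0153 and 0.0437). The median of that list was -0.19, and no gene of the 5 lists was called higher. The share called lower was larger among the ER export genes, 3 of 18, than among the members, 4 of 32. The difference between the lists was not tested. Members and lists were chosen with earlier results of these data known, so these shares only describe them.

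With PDGF, Hspa5 rose in the 8-array table and Ddit3 in the other. Over the 4 pairs of the Src experiment, Hspa5 rose by 0.41 ± 0.07 on the log2 scale, 1.33-fold (limma adjusted p = 0.0166), and Vcp fell by 0.22 (SE 0.05, adjusted p = 0.0484). These were 1 member higher, against 2.47% of all genes, and 1 lower, against 0.824%. In all 10 members had an unadjusted p below 0.05, against 1547 of all 9221 genes. The median effect was 0.04, against -0.05 over all genes. With the arrays scaled to a common median 7 members were called, all higher, against 3.55% of all genes called higher, and 27 in place of 18 members had a positive effect. That scaling moved the median of all genes up by 0.07.

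Hspa5 signal rose with PDGF in each pair, in log2 by 0.72 with vehicle, 0.38 with SU6656, 0.30 with UO126 and 0.23 with LY294002. Without either array of the SU6656 pair Hspa5 was not called (adjusted p = 0.065 and 0.0588). Vcp signal was 7363 without and 6685 with PDGF in vehicle cells, 8316 and 7170 with SU6656, 7248 and 6264 with UO126, and 6613 and 5901 with LY294002. It was lower in each pair, with log2 ratios of -0.27 to -0.19, and its other probe set gave -0.11 without passing. It was not called when any 1 of the 8 arrays was left out (adjusted p 0.125 to 0.169).

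Herpud1 had a PDGF effect of 0.35 ± 0.09 (adjusted p = 0.086) by its brightest probe set, and 0.42 ± 0.07 by the other, which was called (adjusted p = 0.0117). Xbp1 had 0.21 ± 0.06 (adjusted p = 0.0992) and Eif2ak3 -0.32 ± 0.08 (adjusted p = 0.0613). Another probe set was opposite in direction to the brightest for Xbp1 (-0.11), Derl1, Sec61a1, Edem1, Ern1 and Hyou1, and none of these passed. Ddit3 signal was 1613 without and 3525 with PDGF in vehicle cells, 1789 and 2291 with SU6656, 2903 and 3452 with UO126, and 1859 and 2587 with LY294002. It was higher with PDGF in each pair, in log2 by 1.07 with vehicle and by 0.18 to 0.44 with an inhibitor, and the fitted effect of 0.50 ± 0.13 did not pass the threshold (adjusted p = 0.0766).

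In the 9-array table the PDGF effect was fitted over the untreated, UO126, PD98059 and repeat vehicle pairs. Ddit3 signal was 927.8 without and 1626 with PDGF in the pair of the untreated array, 1431 and 2823 with UO126, 1440 and 2972 with PD98059, and 719.9 and 1765 in the repeat, where PDGF with SU6656 gave 1170.0. All 4 PDGF arrays of the pairs were above all 4 arrays without PDGF. Ddit3 rose by 1.01 ± 0.12, 2.01-fold (adjusted p = 0.000931), as 1 of 27 members, against 1.6% of all genes called higher, and no member was lower (0.251% of genes). In all 6 members had an unadjusted p below 0.05, against 884 of all 6364 genes. The median was 0.07, against -0.04 over all genes. The call was kept when any 1 array was left out.

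Hspa5 signal was 6491 without and 6709 with PDGF in the untreated pair, 6547 and 7561 with UO126, 6809 and 7909 with PD98059, and 11950 and 14866 in the repeat, where PDGF with SU6656 gave 11720. The repeat arrays were the higher ones, and the PDGF effect within pairs was 0.19 ± 0.07 (adjusted p = 0.3). Xbp1 signal was 2263 without and 3326 with PDGF in the untreated pair, 2315 and 3676 with UO126, 2328 and 2528 with PD98059, and 3273 and 3654 in the repeat, where PDGF with SU6656 gave 3547. The effect was 0.36 ± 0.11 (adjusted p = 0.207). Herpud1 signal was 1053 without and 1267 with PDGF in the untreated pair, 1250.0 and 1726 with UO126, 1438 and 1946 with PD98059, and 1660 and 1535 in the repeat, where PDGF with SU6656 gave 1978. Its effect was 0.26 ± 0.12 (adjusted p = 0.382), with the repeat pair in the opposite direction.

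Vcp signal in the 9-array table was 5148 without and 3639 with PDGF in the untreated pair, 3626 and 3612 with UO126, 3240 and 3134 with PD98059, and 5738 and 4645 in the repeat, where PDGF with SU6656 gave 4518. Vcp was lower with PDGF in every pair, with log2 ratios of -0.44 to -0.03, and its effect of -0.23 ± 0.10 did not pass (adjusted p = 0.354). Sec61b signal was 3135 without and 2326 with PDGF in the untreated pair, 3066 and 2587 with UO126, 3893 and 2868 with PD98059, and 4093 and 3866 in the repeat, where PDGF with SU6656 gave 3728. It too was lower with PDGF in every pair. Over the 9 arrays Manf ranged from 1532 to 2720, Derl1 from 939.8 to 2312, Dnajb9 from 126.5 to 250.2, Ppp1r15a from 233.6 to 531.8 and Sec61a1 from 2763 to 5240, with PDGF effects of -0.06, -0.14, 0.03, 0.17 and 0.12 that did not pass the threshold. The other Derl1 probe set gave 0.13.

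Over both tables, 3 of 27 members were higher with PDGF in all 8 pairs, Xbp1, Ddit3 and Hspa5, and 2 were lower in all 8, Vcp and Sec61b. The shares among the 5530 genes kept in both tables were 3.62% and 4.05%. Sec61b had a PDGF effect of -0.18 ± 0.06 in the Src experiment (adjusted p = 0.149) and of -0.33 ± 0.09 over the other pairs (adjusted p = 0.166). The tables were normalised apart and were not tested together.

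**Figure D5:**
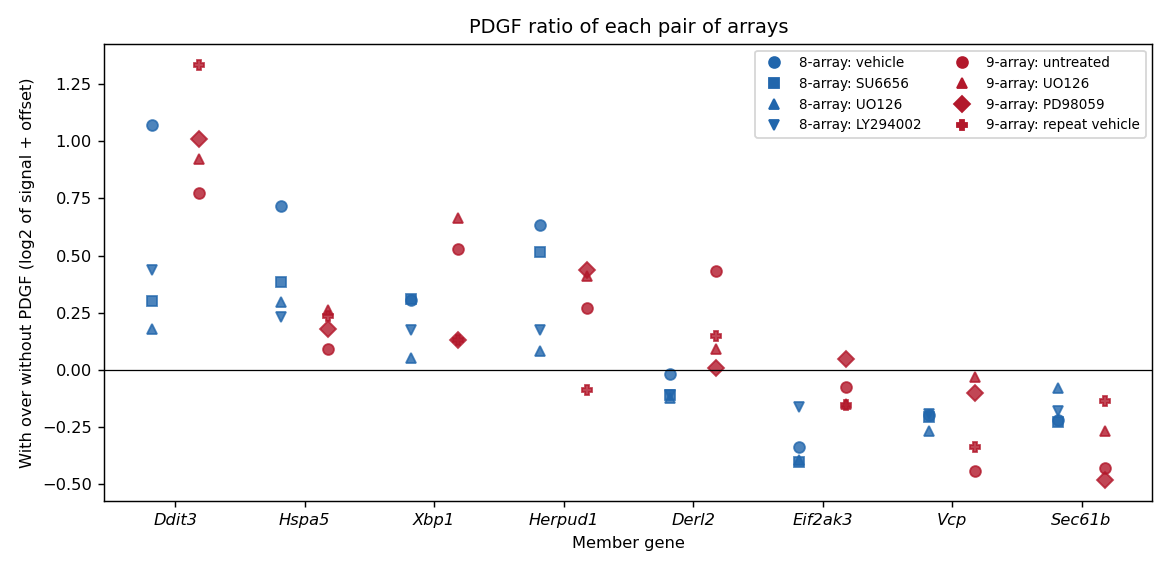
Log2 ratio of signal with over without PDGF (vertical axis) for 8 members, 1 symbol per pair of arrays, blue for the 8-array and red for the 9-array table. Ddit3, Hspa5 and Xbp1 lie above 0 and Vcp and Sec61b below 0 in all 8 pairs, and Derl2 lies below 0 for every blue and above 0 for every red symbol.

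Of other factors of the response, 5 of 16 rose with PDGF in the 8-array table, against 2.47% of all genes, and 1 fell, against 0.824%. Atf3, an early response gene and a target of ATF4, rose by 3.30 ± 0.19 (adjusted p = 1.31e-05) and Cebpb, a partner of CHOP, by 1.16 ± 0.12 (adjusted p = 0.000625), while Atf4 fell by 0.42 (SE 0.06, adjusted p = 0.00239). Over the 9 arrays 2 of 12 such factors rose, against 1.6% of all genes, Atf3 by 3.01 ± 0.17 and Cebpb by 1.23 ± 0.19 (adjusted p = 6.94e-06 and 0.00702). Of the other 4 ER lists only Sdf2 in the 8-array table was called, at -0.32 ± 0.07 (adjusted p = 0.0363).

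MEK inhibition by UO126 and PD98059 called no member in the MEK experiment. Without PDGF limma called 0 of 27 members (0.0157% of all genes). Against 415 of all 6364 genes, 4 members had an unadjusted p below 0.05. These were Pdia4 at 1.02 ± 0.21, Pdia6 at 0.85 ± 0.18, Ddit3 at 0.73 ± 0.19 and Vcp at -0.50 ± 0.15 (adjusted p = 0.28, 0.28, 0.393 and 0.505). The fit took the PDGF effect without a MEK inhibitor from the MEK and repeat experiments together, so its values can differ from the single ratios. These values rest largely on the single untreated array, whose Gapdh ratio of 1.13 was the highest of the 9, and its part in them was not tested. Pdia3 signal was 378.2 on that array, 1188 with UO126 and 532.5 with PD98059. Of the 4 members compared, Dnajc3 and Vcp had other probe sets opposite in direction to the brightest, without and with PDGF. Pdia6 was not among the 4. A further Pdia6 probe set read 588.6 on the untreated array, 611.1 with UO126 and 441.3 with PD98059. Another Pdia6 probe set read 1371.5, 1838.7 and 2004.3 on these arrays.

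Under PDGF limma called 0 of 27 members (0% of all genes). Against 450 of all 6364 genes, 3 members had an unadjusted p below 0.05. Ddit3 had 0.65 ± 0.19, Herpud1 0.58 ± 0.18 and Pdia6 0.46 ± 0.18 (adjusted p = 0.498, 0.498 and 0.614). Ddit3 was higher with both MEK inhibitors, in log2 by 0.59 and 0.59 without PDGF and by 0.75 and 0.83 with it. In the Src experiment UO126 over vehicle was 0.85 for Ddit3 without PDGF and -0.05 with it. SU6656 under PDGF was -0.62 for Ddit3 in the Src experiment and -0.60 in the repeat, each from single arrays and without a test.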

How the data were processed

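Levels were measured on 17 arrays. The authors deposited intensity on a linear scale, 1 value per probe set and array, in 2 tables of 8 and 9 arrays. A mean trimmed by 2% at each end was 500.2 to 500.4 on every array, so the deposited intensity had been scaled. The software and genome build are, in the sources used here, not given. Array medians were 133.7 to 198.4 units, and the number of arrays limits the precision.

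Control probe sets were left out, values were quantile normalised within each table and given an offset, the 20th percentile of each table (36.28 and 21.19 units), before log2 was taken, and the lowest 30% by mean were left out (15838 and 8695 probe sets kept). Genes were named from GEO's platform annotation, updated through RefSeq: 20393 and 10855 probe sets had 1 gene, 691 and 396 several, and 1606 and 1237 were unlisted. limma 3.58.1 in R 4.3.3 (eBayes with a trend) was used, and p-values were adjusted by Benjamini-Hochberg across every kept probe set of a table, with 0.05 as threshold. The PDGF and LY294002 fits of the 8-array table were tested on simulated data with planted effects and independent noise. These held no differences in PDGF effect between pairs, so they do not cover the residual of the real arrays.

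PDGF effects have the pair (shared experiment and inhibitor, by the design) as a block, inhibitor effects have PDGF as a term, and MEK inhibition takes UO126 and PD98059 as 2 arrays. Residual degrees of freedom were 3, and 2 for the interaction. The residual of the other fits holds differences in PDGF effect between pairs, and is not a spread of replicates. That of the MEK inhibition fit holds differences between UO126 and PD98059, and in PDGF effect between the MEK and repeat experiments.

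Arrays are given in full for members past the threshold, for the 2 members of each subgroup with the largest LY294002 effect, and for Hspa5, Xbp1, Ddit3 and Herpud1. Of other lists at most 3 genes with the smallest p are named. Members and lists were chosen with earlier results of these data known. Alternatives changed scaling, offset, filter, variance model, block, probe set and arrays.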

Additional observations from a re-analysis of the deposited data

Results flagged for a closer look

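The PDGF ratio of Derl2, which encodes a membrane protein of the ERAD channel, was opposite in the tables. Its mean over 4 pairs was -0.0891 on the log2 scale in the 8-array table, where all 4 pairs were lower with PDGF, and 0.172 in the 9-array table, where all 4 were higher. The difference between the tables was not tested, since they are of separate array designs with different probe sets and were normalised apart. Neither effect passed the limma threshold (adjusted p = 0.603 and 0.622). Derl2 was flagged for this split, and the share of all genes with such a split is not given here. Of the 2 Derl2 probe sets that passed the filter in the 8-array table, only the brightest was used here.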

How the results depend on the processing

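Over 648 alternative values of the results, 524 kept their direction and their side of the threshold (for counts, stayed within 1.5 times). A further 87 lost the call, 5 gained it, 2 changed sign and 30 counts moved further. The 524 include results never called, such as Dnajb9, Sdf2l1 and Hspa5 with LY294002, each the same in 18 of 18 alternatives. The 87 losses are all of results called in the main setting, so 524 of 648 is not the share of calls that were kept. The 4 members called with LY294002 became 0 without a variance trend and 0 without the PDGF term, and 0 to 5 when 1 array was left out. The 4 called in LY294002 minus UO126 became 0 and 0 under these settings, and 0 to 4 without 1 array. The 3 called in LY294002 minus SU6656 became 0 and 0, and 0 to 3. The cause was not tested. Herpud1 and Xbp1 kept their LY294002 call in 13 of 18 alternatives, Manf in 12 and Derl1 in 9. The LY294002 effect of Ddit3 ranged from -0.497 to 0.269, without 1 array. Ern1 in LY294002 minus UO126 ranged from -0.053 to 1.76, where -0.053 is of another probe set, the brighter one without the LY294002 array, and the same probe set gave 1.67, an alternative chosen after seeing the data. The median LY294002 effect over members stayed between -0.314 and -0.202 under every alternative run. The 2 members called with PDGF in the 8-array table became 7 with a common median, 0 with no filter and 0 without a variance trend. They became 0 with no replicate block, and 1 without any 1 array. Without either array of the SU6656 pair, the 1 called was neither Hspa5 nor Vcp. In the 9-array table the 1 call became 0 with no replicate block. Pairs of arrays share experiment and inhibitor by design, so the block is the main setting for PDGF. Dim probe sets such as that of Ern1 lie near the offset, which limits their folds.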
